A study of Mus musculus with 48 samples.

Results

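Trigeminal ganglia (TG), which hold the sensory neurons of the face, were compared between saline-injected mice taken 7 d after the injection and saline-injected mice taken at 4 h or 24 h. The 4 libraries of 7 d and the 8 earlier ones were chosen from their labelled tissue, injection and time, and make up 12 of the 48 libraries of the series. All came from Balb/c mice aged 2.5 months that received 0.2 mL saline intraperitoneally and no lipopolysaccharide (LPS). Each group of 4 held 2 female libraries (replicates 1 and 2) and 2 male libraries (replicates 3 and 4), each from a different mouse, and both ganglia of a mouse were taken. The remaining libraries of the series were TG libraries from mice given LPS at 2.5 mg/kg in the same volume, and libraries of a sympathetic ganglion, the superior cervical ganglion (SCG). The question was which microRNAs (miRNAs) and tRNA fragments (tRFs) differed among ganglia that had received only saline, in which libraries, and which tissue or cell type those miRNAs are known to mark.

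The TG holds the cell bodies of somatosensory neurons with their satellite glia and Schwann cells, and its root runs to the brainstem beside the motor root. As background, the cluster of miR-183, miR-96 and miR-182 marks sensory neurons, miR-218 marks motor neurons, and miR-9, miR-124 and miR-128 are abundant in neurons of the brain. The miRNAs inside the Hox clusters, such as miR-10a, miR-10b and miR-615, are made in hindbrain, spinal cord and trunk and not in forebrain, while miR-219 marks the oligodendrocytes that myelinate central axons. A mature miRNA binds its targets mainly through its seed, the bases at positions 2 to 8.

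The miRNAs that carry the finding have these mature sequences in RefSeq, in 5′ to 3′ direction, with the seed in capitals. The first set holds the miRNAs that were high in 3 of the 4 libraries of 7 d.
miR-9-5p: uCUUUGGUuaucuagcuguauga
miR-9-3p: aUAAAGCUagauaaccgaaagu
miR-135a-5p: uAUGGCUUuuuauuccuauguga
miR-708-3p: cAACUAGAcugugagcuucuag
miR-132-3p: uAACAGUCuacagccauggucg
miR-132-5p: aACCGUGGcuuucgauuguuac
miR-212-5p: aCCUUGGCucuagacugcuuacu
miR-1298-5p: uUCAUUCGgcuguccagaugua
miR-344-3p: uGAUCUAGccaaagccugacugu
The second set separates those 3 libraries from one another, with miR-10b-5p shown beside its near-identical partner.
miR-10a-5p: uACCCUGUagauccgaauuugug
miR-10b-5p: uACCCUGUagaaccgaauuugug
miR-615-3p: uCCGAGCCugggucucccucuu
miR-7a-5p: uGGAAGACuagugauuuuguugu
Counted from the 5′ end of miR-10a-5p, the miR-10 pair differs by 1 substitution, U12A, outside the shared seed ACCCUGU. Among tested miRNAs, miR-132-3p shares its seed AACAGUC with miR-212-3p, and miR-7a-5p its seed GGAAGAC with miR-7b-5p. A mature sequence was found for 444 of the 511 tested miRNAs and for 12 of the 15 that passed the test at 7 d.

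The genes of these miRNAs lie in several parts of the genome (build GRCm38.p6 of the RefSeq tables; overlaps from the annotation of the same build). Mir1298 (chrX:147064905-147065002, plus strand) lies in an intron of Htr2c, the gene of a serotonin receptor of the brain. Mir132 (chr11:75173682-75173747) and Mir212 (chr11:75173388-75173478) lie side by side in an intron of the noncoding gene 1700016P03Rik. The mature miR-708-3p (chr7:96249496-96249517) lies in an intron of Tenm4, a teneurin gene. The mature miR-615-3p (chr15:103014969-103014990) lies in an intron of Hoxc5, and Mir10b (chr2:74726070-74726137) in introns of Hoxd3 and Hoxd4. Mir10a (chr11:96317165-96317274) overlaps no annotated gene. Mature miR-135a-5p can come from Mir135a-1 (chr9:106154124-106154213) or from Mir135a-2 (chr10:92072086-92072185), which lies in an intron of the noncoding gene Rmst, and the counts do not tell the copies apart.

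Total miRNA counts per library ran from 2936483 to 5166995 (median 4101287), the lowest in 7 d replicate 4, and total tRF counts from 61218 to 429382 (median 150775). Levels are counts per 1000000 counts of a library (CPM) after 1 scaling by trimmed mean of M-values (TMM) over the 24 TG and 12 saline SCG libraries. Log2 fold changes are estimates ± SE from a fit of the 12 saline TG libraries alone. Replicates differed by far more than counting error: in 18 pairs the squared differences averaged 25.2 to 367 times the counting variance.

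At 7 d, 11 miRNAs rose and 4 fell among 511 tested (15 called, 2.94%, of which 2.15% higher and 0.783% lower; edgeR's quasi-likelihood test, Benjamini-Hochberg adjusted p under 0.05). Those that rose were both arms of miR-9, miR-124-3p, miR-135a-5p, miR-708-3p, both arms of miR-132, miR-212-5p, miR-1298-5p, miR-344-3p and miR-495-3p. Those that fell were miR-486a-3p, miR-486b-3p, let-7d-3p and miR-574-5p. Between 24 h and 4 h, 0 of 511 miRNAs were called by edgeR (0.0%), 6 had an unadjusted p under 0.05, and DESeq2 also called 0. For 7 d against the earlier times, 122 had an unadjusted p under 0.05. DESeq2 called 44 miRNAs at 7 d, and these included all 15.

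**Figure D1:**
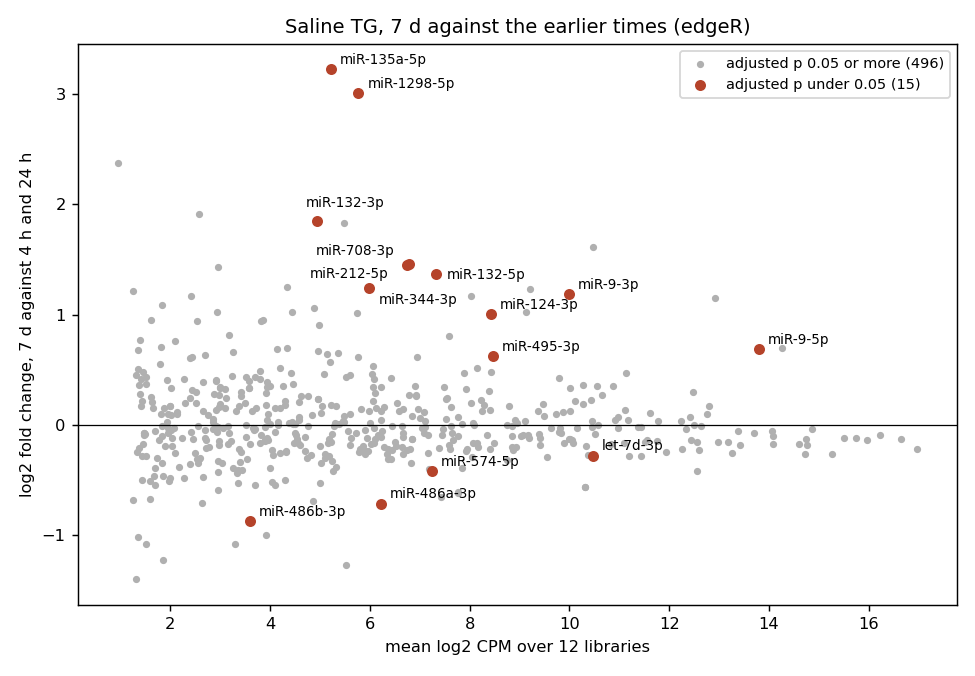
Log2 fold change at 7 d against the 4 h and 24 h libraries (vertical axis) against the mean log2 CPM over the 12 saline TG libraries (horizontal axis), 1 point for each of 511 miRNAs. The 15 called miRNAs are named, and miR-135a-5p and miR-1298-5p have the largest fold changes among them, at 3.22 and 3.01.

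The call count rested on single libraries. It was 0 when 7 d replicate 1, 2 or 4 was left out, and 104 (56 higher, 48 lower) when 7 d replicate 3 was left out. Leaving out 4 h replicate 1 or 24 h replicate 1 gave 7 calls each. Against the 4 h libraries alone 7 were called, and against the 24 h libraries alone 0, with 105 at an unadjusted p under 0.05. Differences are therefore described library by library. In bulk ganglia, fewer cells of a type and less RNA per cell cannot be told apart, and the part that unequal amounts of neighbouring tissue had in the differences was not tested.

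The brain-neuron miRNAs were high in 7 d replicates 1, 2 and 4 and near the earlier level in replicate 3. miR-9-5p, which is made by neural progenitors and neurons, measured 21653, 21577, 13360.0 and 20669.7 CPM in 7 d replicates 1 to 4, against 11268 to 12799 CPM (median 12028) in the 8 earlier libraries. All 4 libraries of 7 d lay above all 8 earlier ones, but replicate 3 only just, and the log2 fold change was 0.68 ± 0.11 (edgeR adjusted p = 0.0164). Its partner arm miR-9-3p stood at 2173, 2312, 814 and 1406 CPM, against 653 to 806 CPM (median 698). Here too replicate 3 sat just above the earlier range, and the log2 fold change was 1.19 ± 0.20 (edgeR adjusted p = 0.0164). The neuronal miR-124-3p measured 594, 631, 259 and 610.4 CPM, against 229 to 303 CPM (median 266), so replicate 3 fell inside the earlier range while the others were 2.23, 2.37 and 2.30 times its median. Its log2 fold change was 1.00 ± 0.20 (edgeR adjusted p = 0.0223).

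Other brain-neuron miRNAs showed the same split without passing the test. The abundant miR-128-3p stood at 29673, 32371, 15249.7 and 29919 CPM in 7 d replicates 1 to 4, against 12508 to 20584 CPM (median 16133) earlier (log2 fold change 0.70 ± 0.18, edgeR adjusted p = 0.0711). miR-129-5p measured 2974, 3148, 1969.8 and 3193 CPM against 1729 to 2496 CPM (median 1999; edgeR adjusted p = 0.0711). In both, replicates 1, 2 and 4 lay above every earlier library and replicate 3 lay inside their range. By contrast miR-137-3p, with 59.8, 67.7, 66.1 and 59.9 CPM against 65.5 to 81.2 CPM (median 69.4), and miR-138-5p, with 830.3, 824, 984 and 914 CPM against 846 to 1075 CPM (median 946), were above the earlier range in 0 of 4 libraries, and edgeR gave adjusted p = 0.311 and 0.58. Of 17 tested miRNAs of the list for brain and spinal cord neurons (19 in the table), 3 rose and 0 fell, beside 2.15% and 0.783% over all 511. Their median log2 fold change was 0.53 beside -0.02 over all 511. Summed over the list, the level was 58333, 61331, 33022 and 57229.7 CPM in 7 d replicates 1 to 4, against 27622 to 37944 CPM in the 8 earlier libraries. Replicates 1, 2, 3 and 4 exceeded all 8 earlier libraries in 10, 12, 4 and 10 of the 17, where over all 511 miRNAs the shares were 19.2%, 20.5%, 8.22% and 25.8%.

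**Figure D2:**
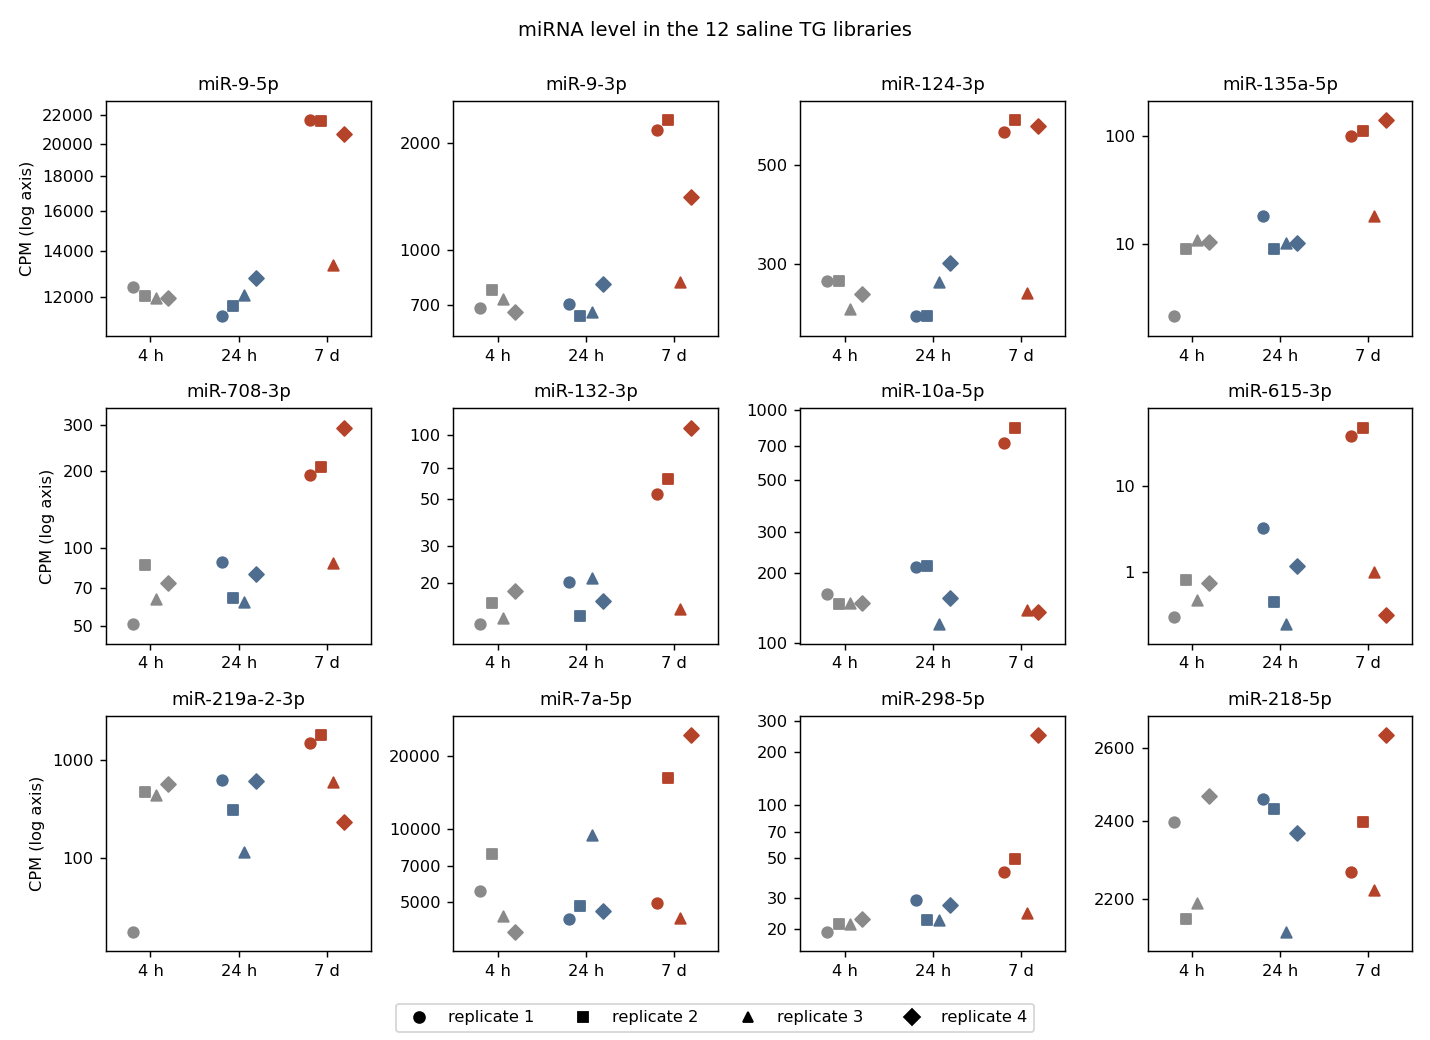
CPM (log axis) of 12 miRNAs in the saline TG libraries by time, 1 symbol for each replicate (1 and 2 female, 3 and 4 male). In the miR-9, miR-124-3p, miR-135a-5p, miR-708-3p and miR-132-3p panels 7 d replicates 1, 2 and 4 sit above the rest, in the miR-10a-5p and miR-615-3p panels only replicates 1 and 2 do, and miR-298-5p is highest in replicate 4 at 247 CPM.

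The cluster of miR-132 and miR-212, which neuronal activity induces through CREB, was also high in 3 of the 4 libraries. miR-132-3p measured 52.7, 62.1, 15.0 and 108 CPM in 7 d replicates 1 to 4, against 12.8 to 21.3 CPM (median 16.3) earlier (log2 fold change 1.85 ± 0.36, edgeR adjusted p = 0.0223). miR-132-5p measured 278, 295, 98.9 and 426 CPM against 94.9 to 121 CPM (median 103; log2 fold change 1.37 ± 0.27, edgeR adjusted p = 0.0223). miR-212-5p measured 197, 213, 60.6 and 287 CPM against 59.0 to 89.8 CPM (median 65.9; log2 fold change 1.45 ± 0.30, edgeR adjusted p = 0.0236). In all 3, replicate 3 lay inside the earlier range and replicate 4 was the highest of the 12. Of the 4 tested members 3 rose, beside 2.15% over all 511. The other, the scarce miR-212-3p, had 3.33, 3.58, 1.25 and 4.51 CPM (edgeR adjusted p = 0.109).

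Both called miRNAs with log2 fold changes over 3 were scarce in the earlier ganglia. miR-135a-5p, which is abundant in brain, stood at 99.1, 112, 18.3 and 140.4 CPM in 7 d replicates 1 to 4, against 2.14 to 18.1 CPM (median 10.2) earlier (log2 fold change 3.22 ± 0.49, edgeR adjusted p = 0.0164). Replicate 3 was level with the highest earlier library, 24 h replicate 1. The partner arm miR-135a-2-3p, which names the Rmst copy, had 2.92, 14.9, 1.001 and 10.3 CPM against 0.25 to 1.92 CPM (median 0.845) and was under the filter on low counts. miR-1298-5p, of the Htr2c intron, measured 204, 138, 10.5 and 178 CPM, against 8.60 to 24.2 CPM (median 16.6; log2 fold change 3.01 ± 0.58, edgeR adjusted p = 0.0236). Here replicate 3 was inside the earlier range and the other libraries of 7 d were far above it.

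Its other arm, miR-1298-3p, was too scarce to pass the filter and stood at 14.0, 18.7, 1.75 and 10.9 CPM, against 0.452 to 1.65 CPM (median 0.866). miR-1264-3p was also under the filter and was picked after its values were seen: it had 5.83, 6.41, 0.25 and 4.51 CPM, with at most 0.75 CPM earlier. In both, as for miR-1298-5p, replicate 3 was the lowest of the libraries of 7 d.

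miR-708-3p, miR-344-3p and the miR-135a-5p described above belong to a list picked from an earlier result of these libraries, lower levels after LPS at 7 d in TG. Their direction is therefore not independent evidence. miR-708-3p measured 192, 207, 87.9 and 293 CPM in 7 d replicates 1 to 4, against 51.0 to 88.4 CPM (median 68.8; log2 fold change 1.46 ± 0.25, edgeR adjusted p = 0.0164). miR-344-3p, of a family expressed in brain, stood at 86.0, 96.0, 46.1 and 192 CPM against 35.1 to 52.8 CPM (median 44.6; log2 fold change 1.24 ± 0.28, edgeR adjusted p = 0.0364). Replicate 3 fell within the earlier range for both, and replicate 4 was the highest. Of 7 tested members of the list 3 rose (miR-135a-5p, miR-708-3p and miR-344-3p) and 0 fell, beside 2.15% and 0.783% over all 511. Their median log2 fold change was 0.52. The partner arm miR-708-5p did not pass the test, with 52.1, 57.5, 51.1 and 63.4 CPM against 32.4 to 53.7 CPM (median 40.8; edgeR adjusted p = 0.0711).

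Single members of the hindbrain and central myelin lists, miR-10a-5p, miR-615-3p and miR-219a-2-3p, were high in replicates 1 and 2 and not in replicate 4. miR-10a-5p measured 720.4, 840.3, 139 and 137 CPM in 7 d replicates 1 to 4, against 121 to 215 CPM (median 153) earlier. Replicates 1 and 2 were far above every other library, while replicates 3 and 4 lay inside the earlier range. Over all 4 libraries the difference did not pass the test (log2 fold change 1.17 ± 0.37, edgeR adjusted p = 0.109). miR-615-3p, from the Hoxc cluster, stood at 37.5, 46.8, 1.001 and 0.322 CPM, against 0.253 to 3.29 CPM (median 0.616), and was not tested because the filter removed it. Its pattern was that of miR-10a-5p: 2 high libraries, and 10 at or under 3.29 CPM.

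miR-10b-5p, the partner of miR-10a-5p that differs by U12A, was not high in any of them, with 2923, 2969, 3329 and 2269 CPM against 2895 to 3445 CPM (median 3182; edgeR adjusted p = 0.429). Of 11 miRNAs of the Hox list in the table, 3 were tested and 0 were called. miR-219a-2-3p of oligodendrocytes measured 1483, 1778, 594 and 233 CPM, against 17.7 to 620.3 CPM (median 456). Replicates 1 and 2 were again the highest of the 12, replicate 4 was below replicate 3, and the earlier libraries themselves spanned a wide range (log2 fold change 1.24 ± 0.88, edgeR adjusted p = 0.424). The opposite arm miR-219a-5p had 8.75, 14.3, 5.01 and 2.25 CPM, against 0.611 to 6.30 CPM (median 3.27). miR-338-3p, which Schwann cells also make, was not above the earlier range in any library, with 2229, 1900.4, 2404 and 1637 CPM against 2066 to 2482 CPM (median 2319). The other tested members of the myelinating-glia list stood at 4.58, 4.15, 4.26 and 6.44 CPM against 3.36 to 9.50 CPM (median 5.47) for miR-219a-1-3p and at 5201, 4408, 4983 and 3305 CPM against 4787 to 5741 CPM (median 5311) for miR-338-5p. Of the 5 tested, 2 had a higher and 3 a lower estimate at 7 d, 0 were called, and the median log2 fold change was -0.16.

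**Figure D3:**
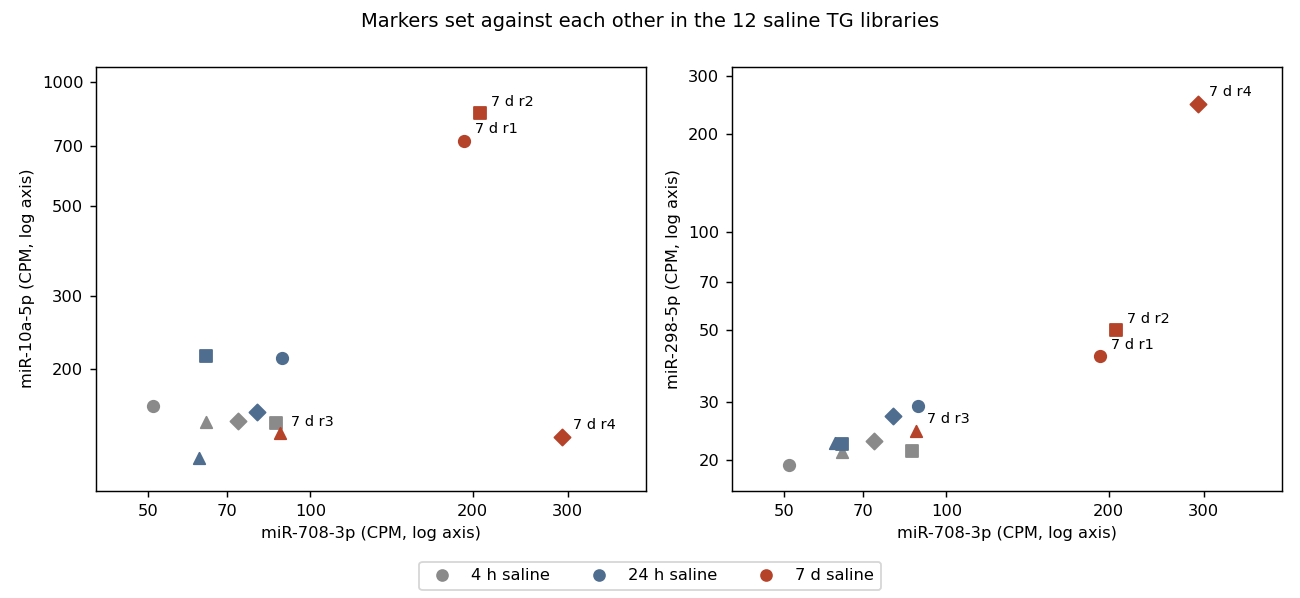
CPM of miR-10a-5p (left) and miR-298-5p (right) against miR-708-3p in the 12 saline TG libraries, all axes logarithmic, with colours for the time and symbols for the replicate as in the plot of levels by time. With 192, 207 and 293 CPM of miR-708-3p in 7 d replicates 1, 2 and 4, replicates 1 and 2 held 720.4 and 840.3 CPM of miR-10a-5p and replicate 4 held 137, whereas replicate 4 held 247 CPM of miR-298-5p.

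Motor-neuron miR-218 was not among the miRNAs that rose. miR-218-5p stood at 2267, 2397, 2222 and 2637 CPM in 7 d replicates 1 to 4, against 2123 to 2467 CPM (median 2382; log2 fold change 0.04 ± 0.07, edgeR adjusted p = 0.748). Replicates 1, 2 and 3 lay inside the earlier range and replicate 4 just above it. For scale, the saline SCG libraries held 25426 to 35820.0 CPM.

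Replicate 4 had the most miRNAs at least 2-fold above the earlier libraries. At a level of at least 10 CPM and at least 2-fold above all 8 earlier libraries, 9 tested miRNAs were found in replicate 1, 14 in replicate 2, 0 in replicate 3 and 28 in replicate 4 (1.76%, 2.74%, 0.0% and 5.48% of 511). Each earlier library, set against the other 7 in the same way, had 0 to 4, and each of the 12 TG libraries from LPS-treated mice 0 to 5. Shared by replicates 1, 2 and 4 were 6: miR-1298-5p, both arms of miR-132, miR-135a-5p, miR-212-5p and miR-708-3p. Replicates 1 and 2 without 4 shared miR-10a-5p, miR-219a-2-3p and miR-9-3p. The 2-fold limit was passed by replicate 4 alone for 20, among them both arms of miR-153, miR-298-5p, miR-344-3p, miR-369-5p and miR-7a-5p. Replicate 4 was not the only library above the earlier range for these: so were replicates 1 and 2 for miR-153-3p, miR-298-5p, miR-344-3p and miR-369-5p, by less than 2-fold. Since the sets were chosen by their level in single libraries, they are a description.

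miR-298-5p stood at 41.7, 49.8, 24.5 and 247 CPM in 7 d replicates 1 to 4, against 19.2 to 29.2 CPM (median 22.5; log2 fold change 1.83 ± 0.49, edgeR adjusted p = 0.0718). Replicate 4 was far above the rest, while replicates 1 and 2 were also above the earlier range. miR-153-3p, of brain neurons, measured 26.2, 28.7, 12.3 and 65.0 CPM against 8.60 to 17.7 CPM (median 13.6), and miR-369-5p, of the imprinted Dlk1-Dio3 cluster, 224, 242, 164 and 477 CPM against 141 to 173 CPM (median 153; edgeR adjusted p = 0.0711). These too were highest in replicate 4, next in replicates 1 and 2, and inside the earlier range in replicate 3. Of 71 tested miRNAs of the Dlk1-Dio3 cluster, which neurons express strongly, 1 rose and 0 fell, beside 2.15% and 0.783% over all 511. The median log2 fold change of the 71 was 0.17. Replicates 1, 2, 3 and 4 exceeded all 8 earlier libraries in 14, 22, 10 and 39 of the 71, beside 19.2%, 20.5%, 8.22% and 25.8% over all 511. The 1 that rose, miR-495-3p, differed from the others in that replicate 3 was also high: it stood at 418, 366, 405 and 692 CPM against 271 to 349 CPM (median 295; log2 fold change 0.62 ± 0.15, edgeR adjusted p = 0.0483), above all 8 earlier libraries in each. Its call held in 1 of the 12 fits that each left out a single library.

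Some endocrine miRNAs followed another split: miR-7a-5p and miR-7b-5p were high in replicates 2 and 4, and miR-375-3p in replicate 2. miR-7a-5p, abundant in pituitary and hypothalamus, measured 4955, 16163, 4279 and 24245 CPM in 7 d replicates 1 to 4, against 3755 to 9393 CPM (median 4682). miR-7b-5p stood at 676, 5231, 391 and 4187 CPM against 351 to 2167 CPM (median 503), and miR-375-3p, of endocrine cells, at 152, 3733, 68.1 and 288 CPM against 28.3 to 1023 CPM (median 104). Some earlier libraries were high as well: 4 h replicate 2 and 24 h replicate 3 held 1023 and 955 CPM of miR-375-3p. Of 11 tested members of the pituitary and endocrine list, 6 had a higher and 5 a lower estimate at 7 d (median log2 fold change 0.07). Replicates 1, 2, 3 and 4 exceeded all 8 earlier libraries in 0, 3, 0 and 3 of the 11, beside 19.2%, 20.5%, 8.22% and 25.8% over all 511. In the test 0 were called (edgeR adjusted p = 0.199 for miR-7a-5p, 0.264 for miR-7b-5p and 0.678 for miR-375-3p). The list summed to 5845, 26107, 5439 and 29034 CPM in 7 d replicates 1 to 4, against 4191 to 14167 CPM in the 8 earlier libraries. In the TG libraries from LPS-treated mice the sums ran from 4366 to 40883 CPM, so the highest of them exceeded every saline library of 7 d.

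**Figure D4:**
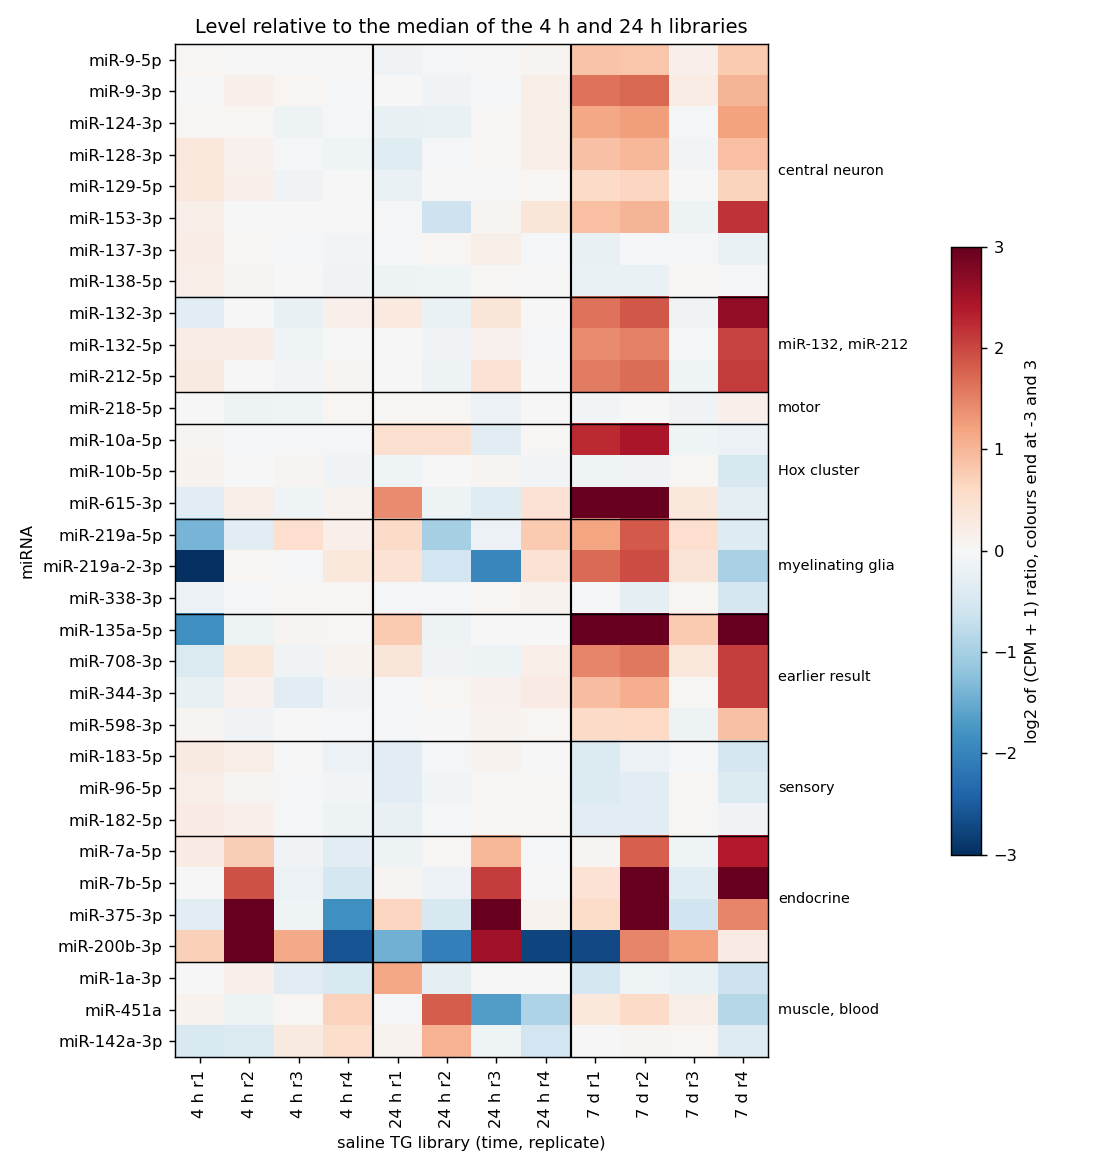
Log2 of (CPM + 1) over that of the median of the 8 earlier libraries, for selected miRNAs (rows, by list). Columns are the 12 saline TG libraries by time and replicate, with red for higher, blue for lower and colours ending at -3 and 3. The 7 d replicate 3 column stays pale in the brain-neuron, miR-132, miR-212 and Hox rows, replicates 1 and 2 are red for miR-10a-5p and miR-615-3p and replicate 4 is not, and the endocrine rows vary among the libraries of all times.

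The markers of the labelled tissue were present in every library and none passed the test, though their estimates were lower at 7 d. miR-183-5p of sensory neurons measured 31691, 37272, 41292 and 29686 CPM in 7 d replicates 1 to 4, against 33284 to 51029 CPM (median 42139; log2 fold change -0.27 ± 0.12, edgeR adjusted p = 0.203). Replicates 1 and 4 lay below all 8 earlier libraries, and replicates 2 and 3 inside their range. All 6 tested members of the cluster had a lower estimate at 7 d and 0 were called, with a median log2 fold change of -0.26. Their sum was 55948, 61859, 72689 and 57624 CPM in 7 d replicates 1 to 4, against 59202 to 87124 CPM in the 8 earlier libraries. Replicates 1, 2, 3 and 4 were below all 8 earlier libraries in 5, 1, 0 and 3 of the 6. Over all 511 miRNAs those shares were 21.1%, 18.8%, 8.81% and 25.0%.

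Markers of connective tissue were lower by estimate. All 10 tested miRNAs of fibroblasts, meninges and smooth muscle (miR-143, miR-145a, miR-199a, miR-199b and miR-214) had a negative log2 fold change, with a median of -0.53, and 0 were called. Replicates 1, 2, 3 and 4 were below all 8 earlier libraries in 5, 9, 1 and 4 of the 10, where over all 511 miRNAs the shares were 21.1%, 18.8%, 8.81% and 25.0%. miR-214-3p stood at 9.9962, 8.11, 9.76 and 8.05 CPM, against 11.3 to 32.3 CPM (median 15.1; edgeR adjusted p = 0.127), with all 4 libraries below all 8. miR-199a-3p stood at 992, 841, 1149.7 and 947 CPM against 1028 to 2346 CPM (median 1388; edgeR adjusted p = 0.139). The list summed to 10067, 8274, 11306 and 15677 CPM in 7 d replicates 1 to 4, against 10228 to 27144 CPM in the 8 earlier libraries, so replicate 4 was not low in the sum, where miR-143-3p weighs most.

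Of the 4 miRNAs that fell, 2 were 3p arms of miR-486, a red cell miRNA that muscle also makes. miR-486a-3p measured 45.2, 56.4, 62.8 and 46.0 CPM in 7 d replicates 1 to 4, against 64.8 to 106 CPM (median 88.0; log2 fold change -0.71 ± 0.14, edgeR adjusted p = 0.0223). miR-486b-3p measured 4.998, 7.92, 10.01 and 7.41 CPM against 10.7 to 15.6 CPM (median 14.4; log2 fold change -0.87 ± 0.18, edgeR adjusted p = 0.0223). All 4 libraries of 7 d, replicate 3 included, lay below all 8 earlier ones for both. The genes of the pair are near-identical, so their counts may share reads. The main red cell miRNA, miR-451a, did not follow: it had 1122, 1333, 1019 and 494 CPM against 282 to 3162 CPM (median 901; edgeR adjusted p = 0.908). Of 7 tested members of the red cell list 2 fell and 0 rose.

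let-7d-3p stood at 1232, 1233, 1294 and 1304 CPM, against 1479.6 to 1737 CPM (median 1518; log2 fold change -0.28 ± 0.06, edgeR adjusted p = 0.0223), a small difference in which all 4 libraries lay below all 8. miR-574-5p measured 108, 132, 144 and 118 CPM against 143 to 198 CPM (median 169.9; log2 fold change -0.42 ± 0.10, edgeR adjusted p = 0.0483), with replicate 3 at the lower edge of the earlier range. Over all 511 tested miRNAs, 8 had all 4 libraries of 7 d above all 8 earlier ones (1.57%) and 10 had all 4 below (1.96%).

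Of 5 tested inflammation-induced miRNAs 0 rose and 0 fell. miR-146a-5p, which NF-kB induces, measured 808, 1465, 1397 and 1065 CPM in 7 d replicates 1 to 4, against 1192 to 1625 CPM (median 1455), and miR-155-5p, of activated leukocytes, 5.21, 4.72, 9.51 and 7.73 CPM against 5.44 to 10.8 CPM (median 8.98). Replicates 1 and 4 for the first and replicates 1 and 2 for the second lay below the earlier range, and edgeR gave adjusted p = 0.282 and 0.414. The median log2 fold change of the 5 was -0.28. Replicates 1, 2, 3 and 4 were below all 8 earlier libraries in 3, 3, 0 and 4 of the 5. Over all 511 miRNAs those shares were 21.1%, 18.8%, 8.81% and 25.0%. The list summed to 8945, 9648, 9547 and 7127 CPM in 7 d replicates 1 to 4, against 9122 to 10720 CPM in the 8 earlier libraries. The lists for muscle, skin, cartilage, endothelium, leukocytes, ciliated cells and choroid plexus (miR-204 and miR-211) also had 0 calls, with 6, 2, 2, 2, 6, 2 and 3 tested members. Replicate 4 was above all 8 earlier libraries in 2 of 2 ciliated-cell miRNAs and below all 8 in 4 of 6 muscle miRNAs. Over all 511 miRNAs it was above all 8 in 25.8% and below in 25.0%. The ciliated-cell list, with a median log2 fold change of 0.80, summed to 61.9, 60.0, 38.0 and 109 CPM in 7 d replicates 1 to 4, against 30.3 to 69.5 CPM in the 8 earlier libraries. The muscle list, with a median of -0.35, summed to 4487, 5811, 5584 and 4200.3 CPM in 7 d replicates 1 to 4, against 4676 to 14739 CPM in the 8 earlier libraries.

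The TG libraries from LPS-treated mice, processed in the same series and not part of the test, gave a further reference. The highest of those 12 libraries held 14431 CPM of miR-9-5p, 349 of miR-124-3p, 44.6 of miR-135a-5p, 114 of miR-708-3p and 72.4 of miR-1298-5p. In each case 0 of the 12 reached the lowest of 7 d replicates 1, 2 and 4. For miR-132-3p 1 of the 12 did, at 66.0 CPM. miR-10a-5p did not exceed 207 CPM and miR-615-3p did not exceed 4.84 CPM in any of them. Both values are under the levels of 7 d replicates 1 and 2. These comparisons are a description, since 7 d replicates 1, 2 and 4 were singled out after their levels were seen. miR-135a-5p and miR-708-3p had also been listed for lower levels after LPS at 7 d in TG. For the endocrine list the sums in the LPS libraries ran from 4366 to 40883 CPM, and the highest exceeded every 7 d saline library.

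Whether the time difference was another in the SCG was tested with an interaction term over the 24 saline libraries of both ganglia. Of 541 miRNAs 10 were called (1.85%), 7 with a higher and 3 with a lower 7 d difference in TG (1.29% and 0.555%). Among the 7 was miR-129-2-3p, with a difference of log2 fold changes of 2.16 ± 0.36 (edgeR adjusted p = 0.00373). So were miR-132-3p with 2.26 ± 0.48 (edgeR adjusted p = 0.0239) and miR-1298-5p with 2.81 ± 0.63 (edgeR adjusted p = 0.0373). miR-129-2-3p was not called in the TG libraries alone. Each term combines the time difference in TG with that in SCG, and the SCG difference was not tested on its own. miR-615-3p, which the TG libraries alone did not carry past the filter, entered this fit only through the SCG libraries. Its term of 4.12 ± 0.99 rests on 7 d replicates 1 and 2 on the TG side and is given as a description. For miR-135a-5p the term was 2.40 ± 0.76 and did not pass (edgeR adjusted p = 0.0845), so a difference between the ganglia was not shown for it. This count too moved with single libraries: it was 54 without TG 7 d replicate 3, 17 and 19 without SCG 7 d replicates 3 and 4, 7 to 10 without SCG 4 h replicate 1, 2 or 4 or TG 24 h replicate 1, and 1 to 6 without any other. As levels, the saline SCG held 3513 to 4998 CPM of miR-10a-5p and 303 to 486 CPM of miR-615-3p, above every saline TG library.

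An interaction of the time difference with sex gave 1 call of 511 (0.196%), miR-10a-5p. Its 7 d difference was lower in males by a log2 value of -2.18 ± 0.18 (edgeR adjusted p = 0.000137). The 2 high libraries were the 2 female ones of 7 d. With 2 libraries of each sex at each time, sex and the individual libraries cannot be told apart. The count was 47 without 7 d replicate 3 and 20 without 7 d replicate 4, which each leave 1 male library at 7 d that is assumed to vary like the other groups.

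The tRFs, fragments of transfer RNA that cells cut under stress and at rest, showed 0 calls of 449 tested at 7 d (0.0%; edgeR; 32 at an unadjusted p under 0.05, 1 call by DESeq2) and 0 of 449 between 24 h and 4 h (0.0%; 10 at an unadjusted p under 0.05, 0 by DESeq2). The 5 with the smallest p included a pair of internal fragments that the deposited annotation assigns to leucine tRNAs (LeuAAG, LeuTAG) and that differ in length by 1 base. They are printed because the shorter lies within the longer.
tRF-18-W96KM80E: tcttcggaggcgtgggtt
tRF-17-W96KM8N: tcttcggaggcgtgggt
The longer stood at 112, 102, 68.6 and 310.3 CPM in 7 d replicates 1 to 4, against 0 to 44.3 CPM (median 25.2) earlier (log2 fold change 2.82 ± 0.57, edgeR adjusted p = 0.105). The shorter stood at 215, 212, 114 and 478 CPM, against 22.7 to 147 CPM (median 87.6; log2 fold change 1.61 ± 0.43, edgeR adjusted p = 0.301). Both were highest in replicate 4 and lowest, among the libraries of 7 d, in replicate 3. At tRF depths, levels of this size rest on few reads per library.

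The others among the 5 were tRF-19-3L90Q42E of LeuCAA (log2 fold change 1.22 ± 0.29), tRF-21-DRFU8U76B of GlnCTG and GlnTTG (log2 fold change 0.94 ± 0.26) and tRF-17-8SPOL52 of GlyTCC (log2 fold change -1.24 ± 0.36), with edgeR adjusted p = 0.206, 0.301 and 0.328. For tRF-21-DRFU8U76B all 4 libraries of 7 d, at 99.0, 90.7, 114 and 103 CPM, lay above the earlier 39.1 to 70.6 CPM (median 53.4). The makeup by fragment type did not differ beyond the spread: 5′-halves held 73.3% ± 3.34 against 73.9% ± 4.97 of the tRF counts (mean ± SD, n = 4 at 7 d and n = 8 earlier; exact permutation test, two-sided, adjusted p = 1.0). Internal fragments held 5.06% ± 0.785 against 4.52% ± 1.9, and 3′-tRFs 5.47% ± 0.84 against 5.56% ± 2.62. The exact permutation p adjusted over 5 types was 1.0 for each, where the smallest p the design allows is 0.00404.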

How the data were processed

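Small RNA of ganglia was sequenced after ligation-based library preparation from 140 ng total RNA, per the labels' protocols. The deposited values are whole-number counts per mature miRNA (1978 rows) and per tRF (13007 rows), which the authors gave without normalisation. FastQC 0.11.9 and build GRCm39 are named per the submitters' processing notes, and column names of the tRF table per the file headers show that flexbar was used. The aligner and the counter were not given in the sources used here. Fragment types and parent tRNAs are those of the deposited annotation, which names human tRNA genes, so tRFs carry no genome position. Coordinates of miRNAs are those of RefSeq for GRCm38.p6, an older build than the authors'.

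Counts were fitted with edgeR 4.0.16 in R 4.3.3 (limma 3.58.1; TMM scaling, an expression filter per group at 10 counts, robust quasi-likelihood F-test, additive sex term, two-sided), with DESeq2 1.42.0 as an alternative, on the 12 saline TG libraries. The contrast was 7 d minus the mean of 4 h and 24 h, with Benjamini-Hochberg adjustment over all tested rows and calls at adjusted p under 0.05. The interaction with the ganglion used the 24 saline libraries of both ganglia and treated them as independent. Any dependence between TG and SCG libraries of the same mouse was not modelled, and its p-values do not allow for it. The procedure was tested on simulated data. Replicate numbers follow accession order and pair no samples. P-values measure the spread between mice. Precision was limited by depth mainly for tRFs and for miRNAs under about 10 CPM.

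The 19 lists (252 miRNAs) and the comparison were chosen with earlier results of these data known. Named were all list members where a result turned on them, the miRNAs called at 7 d and the 5 tRFs with the smallest p. Picked after their values were seen were miR-298-5p, miR-369-5p and miR-1264-3p, and the opposite arms of some called miRNAs. Other opposite arms, among them let-7d-5p, miR-574-3p and miR-124-5p, were tested and their levels are not given. Alternatives were another scaling, no filter, all 24 TG libraries, no sex term, each earlier time alone and leaving out each library; leaving out 7 d replicates 1 and 2, or 1, 2 and 4, was added after the data were seen.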

Additional observations from a re-analysis of the deposited data

Results flagged for a closer look

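Among 153 groups of 4 libraries looked at over 51 miRNAs, 18 held 1 library far from the other 3. The 51 were the called miRNAs and others named here, some picked after their values were seen. The count of 18 is therefore a description and has no chance rate to be set against. At 7 d, replicate 3 stood below the others for miR-9-5p (13360.0 CPM against 20669.7 to 21653), miR-124-3p (259 CPM), miR-128-3p (15249.7 CPM) and miR-129-2-3p (23.8 CPM), and above them for miR-96-5p of sensory neurons (4378 CPM). Replicate 4 of 7 d stood above the others for miR-298-5p (247 CPM) and miR-495-3p (692 CPM), and replicate 2 of 7 d for miR-375-3p (3733 CPM).

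Among the earlier libraries, 24 h replicate 3 stood above its group for miR-7a-5p (9393 CPM), miR-7b-5p (2167 CPM), miR-375-3p (955 CPM) and miR-200b-3p (554 CPM). 4 h replicate 2 stood above its group for miR-7b-5p (1898 CPM) and miR-375-3p (1023 CPM). 24 h replicate 1 stood above its group for striated-muscle miR-1a-3p (14013 CPM) and for miR-135a-5p (18.1 CPM). 4 h replicate 1 stood slightly above a tight group for miR-10a-5p (162 CPM) and miR-153-3p (15.6 CPM).

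The time difference itself differed between TG and SCG, by the interaction test of edgeR at adjusted p under 0.05, for miR-132-3p (2.26 on the log2 scale, TG minus SCG), miR-1298-5p (2.81), miR-129-2-3p (2.16), miR-615-3p (4.12), miR-1264-3p (3.001), let-7d-3p (-0.67) and miR-574-5p (-1.10). Each value combines the time difference in TG with that in SCG, which was not tested on its own. For let-7d-3p, miR-574-5p and miR-132-3p the value exceeded in size the TG log2 fold change given above. miR-615-3p and miR-1264-3p did not pass the filter in TG alone and entered this fit only with the SCG libraries, so their values are a description. The time difference differed between males and females for miR-10a-5p (-2.18).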

How the results depend on the processing

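The count of miRNAs called at 7 d (15) was 14 with another scaling, 44 with DESeq2, 79 of 1295 with no filter, 73 of 538 with all 24 TG libraries in 1 fit, 32 with no sex term, 7 against 4 h alone and 0 against 24 h alone. Leaving out each library in turn gave 0 to 104. It was 0 without 7 d replicates 1 and 2, and 0 without 7 d replicates 1, 2 and 4, where the lone replicate 3 is assumed to vary like the other groups. In that last fit the log2 fold change reversed for miR-124-3p (-0.038), miR-132-3p (-0.20), miR-132-5p (-0.039), miR-1298-5p (-0.47) and miR-212-5p (-0.23). The cause was not tested. All 15 were also called by DESeq2, with all 24 TG libraries, with no sex term and without 7 d replicate 3. In the 12 fits that each left out a single library, miR-9-5p, miR-9-3p, miR-135a-5p, miR-708-3p and miR-486a-3p stayed called in 9. miR-344-3p and miR-574-5p stayed called in 2 each, and miR-495-3p in 1.

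With no filter, 9 miRNAs were called between 24 h and 4 h. Leaving out each library in turn was done with the filter only, and gave 0 calls each time. For tRFs at 7 d, 1 was called with DESeq2, 4 with no filter and 1 with all 24 TG libraries, and 0 to 3 when leaving out each library (3 without 24 h replicate 4, 1 without 24 h replicate 1 or 7 d replicate 3). The TG against SCG interaction (10) gave 30 with DESeq2 and 46 with no filter, and 1 to 54 when leaving out each library. The sex interaction (1) gave 5 with DESeq2, 5 with no filter, and 1 to 47 when leaving out each library. No share of a tRF type was called under any alternative. Libraries of different times came from different mice, so they cannot be paired. The labels do not link the TG and SCG libraries of a mouse, so no analysis paired by mouse was possible between the ganglia.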
